A study of Mus musculus with 4 samples.

Results

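Ubiquitin enzyme and proteasome genes were examined in a table of 23595 consensus peaks of open chromatin from mouse bone marrow neutrophils. Members were the peaks whose listed nearest gene has a name starting with Psma to Psmg and a digit (proteasome subunits and their partners), Ube2 (ubiquitin-conjugating enzymes) or Usp and a digit (ubiquitin-specific proteases). This rule uses gene names only and no measured value. It gave 168 peaks near 108 of the 11693 genes with a peak: 53 peaks at 38 proteasome genes, 47 peaks at 30 Ube2 genes and 68 peaks at 40 Usp genes. Of these, 104 were promoter peaks, within 1000 bp of a transcription start site (TSS) or annotated as promoter, and 64 were distal.

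Chromatin was probed with ATAC-seq, in which the Tn5 transposase cuts and tags accessible DNA. The KO libraries came from neutrophils of Morrbid-deficient animals on a C57BL6 background, and the WT libraries from C57BL6 neutrophils. Morrbid is a long non-coding RNA known for controlling the lifespan of short-lived myeloid cells. Cells were flow sorted from bone marrow without culture, and 50000 cells per genotype were transposed in duplicate, which gave 2 KO and 2 WT libraries. The labels give no age, no deletion boundaries and no separate animals for the duplicates. A p-value here therefore sets the genotypes against the spread of duplicate libraries, and that spread may be technical only. For p-values and standard errors alike, the spread was estimated in part from other peaks of similar mean signal, not from the peak alone. In pooled cells, more accessible copies and a different mix of cells cannot be told apart.

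Proteins are marked for breakdown by a relay in which an activating enzyme passes ubiquitin to a conjugating enzyme (E2), and a ligase directs it to the substrate. Deubiquitinases, of which the ubiquitin-specific proteases are the largest family, remove or trim the chains. The proteasome is a 20S core of alpha and beta rings, capped by the 19S regulator with its ATPase and non-ATPase subunits or by other activators. In neutrophils this machinery governs the turnover of short-lived proteins, among them the survival factor Mcl1. The name rule also caught Psmc3ip, a recombination cofactor, Ube2cbp, a binding partner of an E2, Usp6nl, a GTPase-activating protein, and Usp39, a splicing factor without protease activity. RefSeq lists 144 protein-coding genes with names of these 3 families, and 36 of them had no row in the table, among them Psma4, Psma7, Psmb9, Psme2, Ube2l6 and Usp5.

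The promoters of 8 members show what kind of sequence lies at the peaks that the results turn on: 3 proteasome genes that were lower in KO, 2 that were higher, 1 higher and 1 lower E2, and 1 higher protease. Each sequence is the 250 bases before the RefSeq start, 5′ to 3′ on the strand of the gene, with coordinates in GRCm38.p6. The peaks themselves are given in mm9, another build, so the 2 sets of coordinates do not match. Capitals mark the matches to the motifs searched, on either strand: GGGCGG, known as the GC box of Sp1-type factors, CCAAT, the box bound by NF-Y, and CCGGAAGT, the core bound by ETS factors.
Psmc4 (chr7:28050093-28050342, minus strand): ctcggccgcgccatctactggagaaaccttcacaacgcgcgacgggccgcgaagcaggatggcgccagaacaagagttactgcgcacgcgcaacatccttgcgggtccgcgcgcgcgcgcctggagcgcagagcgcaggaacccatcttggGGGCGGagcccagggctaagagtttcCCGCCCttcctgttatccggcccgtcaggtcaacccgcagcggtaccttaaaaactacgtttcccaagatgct
Psme4 (chr11:30771525-30771774, plus strand): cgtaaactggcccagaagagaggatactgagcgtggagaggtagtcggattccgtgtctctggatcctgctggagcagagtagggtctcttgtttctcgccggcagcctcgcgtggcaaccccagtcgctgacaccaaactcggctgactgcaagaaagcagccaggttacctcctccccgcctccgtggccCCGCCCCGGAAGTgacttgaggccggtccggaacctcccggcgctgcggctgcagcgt
Psmd11 (chr11:80428365-80428614, plus strand): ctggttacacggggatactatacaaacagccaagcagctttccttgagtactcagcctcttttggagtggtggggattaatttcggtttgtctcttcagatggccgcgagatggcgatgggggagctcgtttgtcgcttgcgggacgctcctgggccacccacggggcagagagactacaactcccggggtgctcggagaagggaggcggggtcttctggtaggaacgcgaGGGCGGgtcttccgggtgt
Psme3 (chr11:101315963-101316212, plus strand): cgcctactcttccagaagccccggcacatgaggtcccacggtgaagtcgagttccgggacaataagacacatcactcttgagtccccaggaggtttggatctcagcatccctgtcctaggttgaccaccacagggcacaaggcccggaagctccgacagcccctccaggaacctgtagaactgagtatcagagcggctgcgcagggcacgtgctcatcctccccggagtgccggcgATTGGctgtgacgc
Psmf1 (chr2:151741311-151741560, minus strand): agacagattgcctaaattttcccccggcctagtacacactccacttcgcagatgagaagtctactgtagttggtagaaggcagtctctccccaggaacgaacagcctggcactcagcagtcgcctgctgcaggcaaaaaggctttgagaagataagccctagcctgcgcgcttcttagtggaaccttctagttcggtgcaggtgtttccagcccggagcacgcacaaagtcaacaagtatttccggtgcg
Ube2s (chr7:4812341-4812590, minus strand): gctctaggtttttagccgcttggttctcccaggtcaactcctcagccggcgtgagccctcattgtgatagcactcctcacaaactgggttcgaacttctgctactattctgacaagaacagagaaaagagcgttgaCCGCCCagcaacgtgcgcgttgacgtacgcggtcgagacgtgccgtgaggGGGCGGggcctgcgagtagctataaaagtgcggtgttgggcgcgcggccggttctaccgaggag
Ube2q1 (chr3:89773359-89773608, plus strand): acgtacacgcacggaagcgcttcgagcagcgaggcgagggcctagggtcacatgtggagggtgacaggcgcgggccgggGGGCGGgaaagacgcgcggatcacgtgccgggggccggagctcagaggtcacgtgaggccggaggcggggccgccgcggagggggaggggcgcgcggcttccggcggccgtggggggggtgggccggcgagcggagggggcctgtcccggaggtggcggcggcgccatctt
Usp12 (chr5:146794957-146795206, minus strand): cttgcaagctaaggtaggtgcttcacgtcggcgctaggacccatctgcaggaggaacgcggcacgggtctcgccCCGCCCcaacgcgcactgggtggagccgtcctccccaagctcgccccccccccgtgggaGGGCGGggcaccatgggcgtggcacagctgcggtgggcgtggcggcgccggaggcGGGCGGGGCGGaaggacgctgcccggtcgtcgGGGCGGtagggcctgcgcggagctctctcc
Psmf1 holds no match, Psme3 holds 1 inverted CCAAT, and Usp12 holds 5 GC boxes, 2 of which overlap by 1 base. In Psme4 an inverted GC box and CCGGAAGT overlap by 1 base. RefSeq windows were at hand for 84 of the 108 genes, 97 windows in all. GGGCGG stood in 63.9% of the members' windows, against 60.2% of 8981 windows of genes with a promoter peak and 32.7% of all 32851 windows. By group it stood in 47.1% of 34 proteasome windows, 72.7% of 33 Ube2 windows and 73.3% of 30 Usp windows. CCGGAAGT stood in 17.6% of proteasome windows, 6.06% of Ube2 windows and 10.0% of Usp windows, against 6.25% for genes with a promoter peak and 2.88% of all windows. These sets are not alike, since the members' windows include genes without a promoter peak. Among the 6 proteasome windows with CCGGAAGT are those of Psmc1 and Psmc2, which have no promoter peak, and Psmc2 counts more than once. CCAAT stood in 32.4%, 18.2% and 16.7% of the windows of these groups, against 36.3% for genes with a promoter peak and 33.8% of all windows. The antioxidant response element TGACNNNGC, the type of site through which Nfe2l1 is known to raise proteasome genes, stood in 11.8% of proteasome windows, against 12.2% for genes with a promoter peak and 10.2% of all windows. Its proteasome matches were TGACGTCGC at Psmb5, TGACGGAGC at Psmb6, TGACTTAGC at Psmc6 and TGACACAGC at Psmd12. The cAMP response element TGACGTCA stood in 1.03% of the members' windows, against 3.02% for genes with a promoter peak and 1.55% of all windows. The interferon-type motif of GAAA, 2 unspecified bases and GAAA stood in 3.09%, against 2.45% and 2.98%. These matches describe letters in a window and locate no bound factor.

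Across the 3 families, 11 peaks were higher and 10 lower in KO neutrophils than in WT neutrophils, and 147 did not pass the test. A peak was called when its adjusted p was below 0.05 in limma, fitted on log2(signal + 1) over all peaks with Benjamini-Hochberg adjustment, and fold changes below are on that scale unless given as ratios of mean signal. Of all 23595 peaks, 10.6% were called, 6.08% higher and 4.55% lower, and among members 12.5% were called, 6.55% higher and 5.95% lower. Both KO libraries lay above both WT libraries at 44 members and below them at another 44, against 28% and 27.3% of all peaks. The members as a whole therefore showed shares near those of the table. Promoters carried 10 of the higher and 8 of the lower calls, out of 104, while 7.6% of all 9084 promoter peaks were higher and 5.8% lower. The median log2 fold change was 0.03 over member promoters and -0.02 over all promoters, and -0.05 over member distal peaks and 0.01 over all distal peaks.

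**Figure D1:**
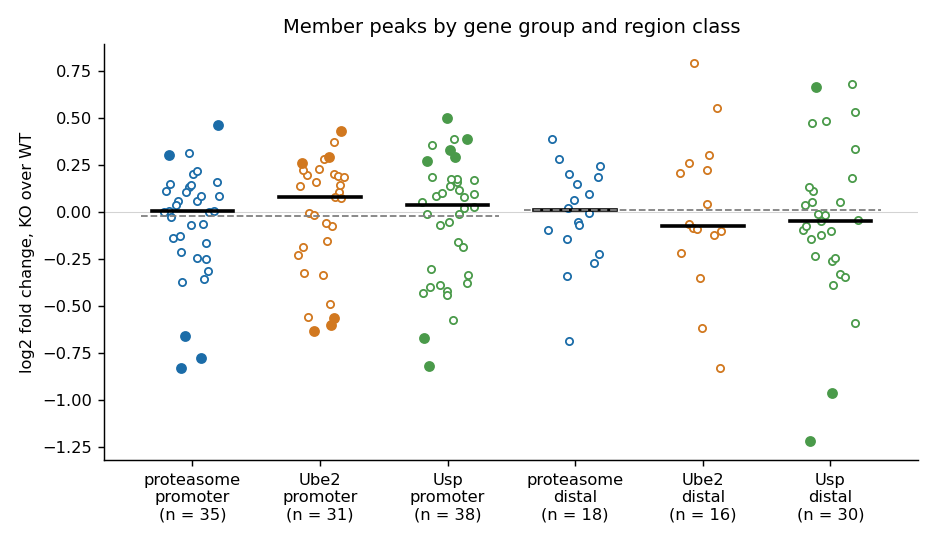
Log2 fold change of signal, KO over WT, for each member peak (points), split into proteasome, Ube2 and Usp genes and into promoter and distal peaks; filled points passed the limma test (adjusted p below 0.05), black bars are medians of the members and dashed lines the medians of all promoter or all distal peaks. The 6 member medians lie between -0.08 and 0.08, and called promoter peaks lie on both sides of 0 in every family.

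Leaving out either KO library ended most of these calls. All 21 kept their direction, which they must, since the KO pair and the WT pair overlapped at none of them. Without KO replicate 1 the calls of Ube2d3, Usp10 and distal Usp35 stood, and without KO replicate 2 those of Usp1, Usp53 and Psmd11 stood. A fit without WT replicate 1 kept 16 of the 21 calls and 1 without WT replicate 2 kept 20. Calls higher in KO also depended on scaling: 3 of the 11 stood after scaling to total signal and 2 after cyclic loess normalisation, against 10 and 7 of the 10 lower calls. With the variance not modelled as a function of mean signal, limma called 0 members, and 31 had an unadjusted p below 0.05.

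Among proteasome genes, the promoters of a 19S ATPase and of 1 activator were higher in KO, and those of a 19S lid subunit, another activator and an inhibitor were lower. Psmc4 encodes an ATPase that unfolds substrates at the base of the 19S cap. Its promoter peak (mm9 chr7:28834872-28835362) had a signal of 341 and 291 in the KO libraries, against 216 and 242 in the WT libraries. Both KO values lay above both WT values, the mean was 316 ± 35.3 in KO and 229 ± 18.7 in WT (SD, n = 2 each), and log2 fold change was 0.46 ± 0.14 (SE, adjusted p = 0.0384; without WT replicate 1, 0.38 and 0.0506). Psme4 encodes a large activator that caps the 20S core and is known for the breakdown of acetylated histones. Its peak (chr11:30671465-30672686) had 652 and 635 in KO libraries, against 517 and 526 in WT libraries, 1.23-fold higher in KO with an adjusted p of 0.0496, just inside the threshold. The values within each genotype differed by far less than the gap between genotypes. Still, neither the Psmc4 nor the Psme4 call stood after scaling to total signal or after cyclic loess normalisation. For Psme4 the adjusted p in limma was then 0.109 and 0.245.

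Psmd11, a scaffold subunit that clamps the 19S lid to the core, moved the other way. Its promoter peak (chr11:80241968-80242601) had 66.2 and 102 in the KO libraries, against 134 and 161 in the WT libraries. The groups did not overlap, and the mean was 84.0 ± 25.2 in KO and 148 ± 19.7 in WT, a log2 fold change of -0.83 ± 0.22 (SE, adjusted p = 0.0180). Without KO replicate 1 the change was -0.52 (adjusted p = 0.385). Psme3 encodes the nuclear activator that works without ubiquitin. At its peak (chr11:101177121-101177937) the signal was 132 and 133 in KO libraries, against 191 and 230 in WT libraries, with a log2 fold change of -0.66 (adjusted p = 0.0160). The KO libraries were nearly alike, the WT libraries differed more, and the genotypes did not overlap. Psmf1, which binds the core and inhibits it in vitro, had 80.4 and 58.9 in KO libraries, against 135 and 104 in WT libraries (chr2:151566621-151567297, log2 fold change -0.78, adjusted p = 0.0336; without WT replicate 1, -0.59 and 0.0829). All 5 of these peaks span the annotated TSS, and each carried at least 75 reads in every library.

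No peak of the core itself passed the test, while 13.4% of all promoter peaks and 8.9% of all distal peaks were called. At those shares, sets as small as these would hold few calls. The 5 promoters of alpha subunits had log2 fold changes of 0.00 to 0.15, and the 8 of beta subunits -0.17 to 0.32. Psma2, an alpha subunit with the strongest proteasome promoter peak, had 980 and 965 in KO libraries, against 906 and 967 in WT libraries, with overlapping groups. Psmb5, the subunit with chymotrypsin-like activity, had 161 and 182 in KO, against 161 and 188 in WT (log2 fold change -0.03, adjusted p = 0.945). Psmb8, its interferon-induced substitute in the immunoproteasome, had the weakest proteasome peak, with 38.9 and 29.1 in KO libraries, against 19.1 and 37.6 in WT libraries. At Psmb10, another immunoproteasome subunit, the listed peak lay 1203 bp from the TSS and was not called (log2 fold change -0.14). Of 4 ATPase promoters 1 was called and of 11 non-ATPase promoters 1 was called, again too few to set against the share of all promoter peaks. Psmd14, the deubiquitinase of the 19S lid, had a log2 fold change of 0.09 (adjusted p = 0.747). The interferon-induced activator Psme1 had 155 and 145 in KO libraries, against 200 and 185 in WT libraries, which did not overlap but did not pass the test (log2 fold change -0.36, adjusted p = 0.179). The assembly chaperones Psmg1 (0.16) and Psmg4 (0.03) had small positive log2 fold changes that were not called.

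**Figure D2:**
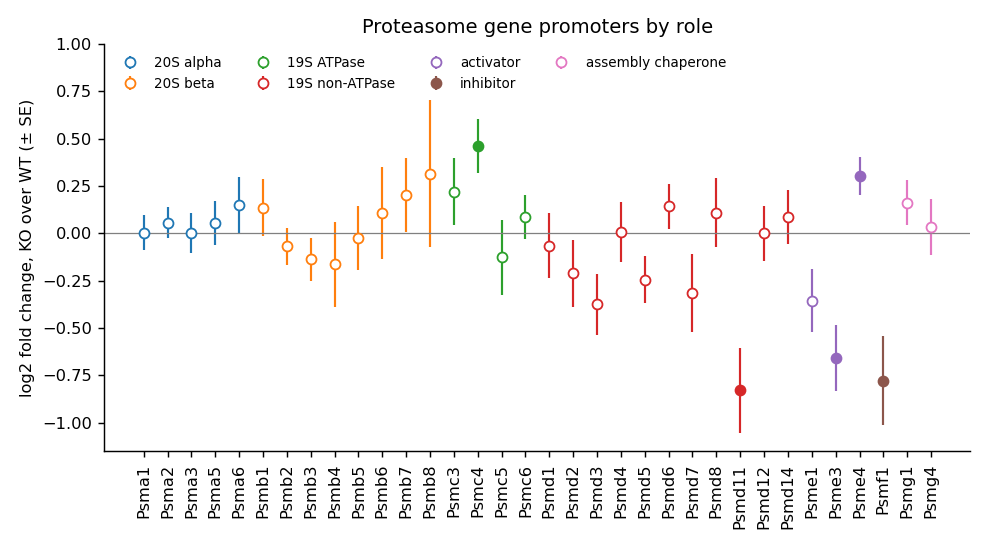
Log2 fold change of signal, KO over WT, with its standard error (bars) for 34 proteasome promoter peaks, coloured by subunit role and without Psmc3ip, which is no subunit; filled points passed the limma test. Psmc4 and Psme4 lie above 0 and Psmd11, Psme3 and Psmf1 below it. The alpha and beta subunits of the core hold no filled point, in a table where 13.4% of all promoter peaks were called.

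Summed over its 35 promoter peaks, the proteasome family had 9999.6 and 9952.6 units of signal in the KO libraries, against 9860.7 and 10153.0 in the WT libraries. The KO sums lay between the WT sums. As a share of each library's total signal, they were 0.1831% and 0.1811% in KO, against 0.1878% and 0.1918% in WT. Both KO shares lay below both WT shares. The mean log2 signal over these promoters overlapped, with 7.812 and 7.786 in KO, against 7.810 and 7.902 in WT. None of these differences was tested. Its 18 distal peaks summed to 3274.3 and 3224.4 in KO, against 3398.9 and 2878.2 in WT, and none was called, while 5.13% of all 14511 distal peaks were higher and 3.77% lower.

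Among Ube2 genes, 3 of 31 promoters were higher and 3 lower in KO, and none of 16 distal peaks was called. That is 9.68% of the Ube2 promoters in each direction, against 7.6% higher and 5.8% lower among all promoter peaks. Of all distal peaks 8.9% were called, a share at which 16 peaks would hold few calls. These differences in share were not tested. Ube2d3, an E2 that works with many ligases, had the strongest promoter peak of all members (chr3:135100771-135102702). Its signal was 3801 and 3933 in the KO libraries, against 3107 and 3218 in the WT libraries. The mean was 3867 ± 93.3 in KO and 3162 ± 78.4 in WT (SD, n = 2 each), 1.22-fold higher in KO, with a log2 fold change of 0.29 ± 0.048 (SE) and the lowest adjusted p of the members (0.000427). A second Ube2d3 peak, 1546 bp inside the gene, had 555 and 502 in KO, against 473 and 412 in WT, and was not called (log2 fold change 0.26, adjusted p = 0.139). Ube2s, the E2 that extends chains for the anaphase-promoting complex, had 1630 and 1614 in KO libraries, against 1422 and 1287 in WT libraries (chr7:4763427-4764794, log2 fold change 0.26, adjusted p = 0.0174). Ube2m passes Nedd8 to cullin ligases, and its peak (chr7:13623214-13624189) had 522 and 516 in KO libraries, against 342 and 434 in WT libraries (log2 fold change 0.43, adjusted p = 0.0231). Without WT replicate 1 the Ube2m change was 0.26 (adjusted p = 0.0871).

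Ube2q1, a less studied E2, was lower in KO, with 225 and 223 in KO libraries, against 354 and 344 in WT libraries (chr3:89576622-89577797). Replicates of each genotype lay close together, with means of 224 ± 1.47 in KO and 349 ± 7.02 in WT (SD), and the log2 fold change was -0.64 ± 0.13 (SE, adjusted p = 0.00362). Ube2k, which builds degradative chains, had 218 and 224 in KO, against 346 and 326 in WT (chr5:65928063-65928995, log2 fold change -0.60, adjusted p = 0.00621). Ube2v1, the inactive E2 variant that pairs with Ube2n to make signalling chains, had 237 and 254 in KO, against 329 and 401 in WT (chr2:167456870-167457843, log2 fold change -0.56, adjusted p = 0.0101). Its partner Ube2n had 840 and 796 in KO, against 650 and 785 in WT, and was not called (log2 fold change 0.19, adjusted p = 0.201). The 3 distal peaks of Ube2v1 were not called either, including the strongest distal Ube2 peak, with 682 and 695 in KO, against 804 and 668 in WT.

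The remaining E2 promoters named here did not pass the test. Ube2c, the initiating E2 of the anaphase-promoting complex, had a log2 fold change of 0.20, and Ube2z, an E2 charged by Uba6, had -0.19. The promoter of Ube2l3, the E2 of the linear ubiquitin assembly complex, had 87.4 and 73.4 in KO libraries, against 116 and 121 in WT libraries, without passing (log2 fold change -0.56, adjusted p = 0.0960). Summed over the 31 promoters, the family had 16626.9 and 16766.6 in KO, against 14898.9 and 16111.1 in WT. Both KO sums lay above both WT sums, but this rests on Ube2d3: without its promoter the sums were 12826.3 and 12834.1 in KO, against 11792.0 and 12893.3 in WT, which overlap. The mean log2 signal over the 31 promoters, which weights each peak equally, overlapped too, with 8.42 and 8.44 in KO, against 8.38 and 8.52 in WT.

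Among Usp genes, 5 of 38 promoters were higher and 2 lower in KO, and of 30 distal peaks 1 was higher and 2 lower. That is 13.2% and 5.26% of the Usp promoters, against 7.6% and 5.8% of all promoter peaks. For distal peaks it is 3.33% and 6.67%, against 5.13% and 3.77% of all distal peaks. These shares rest on few calls, and their differences were not tested. Usp1, which removes ubiquitin from DNA repair proteins, had 2054 and 1833 in the KO libraries, against 1451 and 1514 in the WT libraries (chr4:98589423-98591145). The groups did not overlap, with means of 1943 ± 157 in KO and 1483 ± 44.4 in WT (SD) and a log2 fold change of 0.39 ± 0.068 (SE, adjusted p = 0.000695). Usp53, a family member thought to lack protease activity, had the largest promoter rise of the members: 976 and 921 in KO libraries, against 702 and 640 in WT libraries (chr3:122686754-122687903, 1.41-fold, log2 fold change 0.50, adjusted p = 0.000832). Usp34, known from Wnt signalling, had 791 and 831 in KO, against 665 and 626 in WT (chr11:23205777-23207367, log2 fold change 0.33, adjusted p = 0.0218). Usp12, which acts with WD-repeat cofactors, had 987 and 905 in KO, against 744 and 798 in WT (chr5:147605943-147606922, log2 fold change 0.29, adjusted p = 0.0301). None of these promoters overlapped between genotypes, which held at every called member and follows largely from the call.

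Usp25, a protease of Toll-like and interleukin receptor signalling, was the member gene with more than 1 call. Its promoter had 953 and 892 in KO libraries, against 743 and 785 in WT libraries (chr16:77013572-77014713, log2 fold change 0.27, adjusted p = 0.0435). An intronic peak 70218 bp downstream of the TSS (chr16:77084385-77084680) had 163 and 205 in KO, against 96.9 and 136 in WT (log2 fold change 0.66, adjusted p = 0.0315). Another peak of the gene, 25388 bp downstream, had 69.8 and 86.6 in KO, against 73.4 and 38.97 in WT, and was not called. Without WT replicate 1 the intronic peak's change was 0.42 (adjusted p = 0.0966).

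Usp10 and Usp2 had promoters that were lower in KO. Usp10, a stress-granule protease that also acts on p53, had 93.6 and 69.3 in KO libraries, against 125 and 164 in WT libraries (chr8:122434331-122435086, log2 fold change -0.82, adjusted p = 0.0176), and without WT replicate 2 the change was -0.62 (adjusted p = 0.0559). Usp2, a protease with circadian expression, has 2 promoter peaks in the table. The peak at chr9:43892711-43893362 had 104 and 98.4 in KO, against 176 and 149 in WT (log2 fold change -0.67, adjusted p = 0.0257; without WT replicate 1, -0.55 and 0.0526). The other, starting at 43874777, had a log2 fold change of -0.07 (adjusted p = 0.850). Of the distal peaks, Usp44, a protease of the mitotic checkpoint, had the largest fall of all members at an intronic CpG peak 2633 bp from the TSS (chr10:93296694-93297172): 34.4 and 27.02 in KO, against 61.6 and 84.9 in WT (log2 fold change -1.22 ± 0.31 SE, adjusted p = 0.0118). It rests on few reads, 39 and 39 in the KO libraries, against 42 and 61 in the WT libraries.

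The second lower distal peak illustrates a limit of nearest-gene names. It is listed for Usp35, 54710 bp from that TSS, but lies in an intron of Gab2 (chr7:104419535-104419994), an adaptor of cytokine receptors, and had 56.5 and 38.8 in KO libraries, against 106 and 80.7 in WT libraries (log2 fold change -0.96, adjusted p = 0.0227). All 4 peaks listed for Usp35 lie in Gab2 introns, and their log2 fold changes were -0.12, -0.23, -0.96 and -0.59. The strongest of them, which is also the strongest distal Usp peak, had 936 and 951 in KO, against 1189 and 1034 in WT (adjusted p = 0.0705). In all, 18 of the 64 distal members lie in another gene, among them 3 Psma1 peaks in 4933406I18Rik, 3 Psmd6 peaks in Atxn7 and 2 Usp36 peaks in Timp2.

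Well-known family members without a call included Usp22 of the SAGA complex, with 1481 and 1609 in KO libraries, against 1343 and 1372 in WT libraries (log2 fold change 0.19, adjusted p = 0.0870). Usp3, a histone deubiquitinase, had 208 and 223 in KO, against 299 and 278 in WT (log2 fold change -0.42, adjusted p = 0.0592). Usp18, which removes the interferon-induced modifier Isg15, had 158 and 173 in KO, against 147 and 181 in WT, with overlapping groups. Usp14, which sits on the 19S cap, had a log2 fold change of 0.39 (adjusted p = 0.155), and Usp8, Usp9x and Usp15 had values of -0.19, 0.10 and 0.17. The 2 promoter peaks of Usp7, a regulator of Mdm2, had values of 0.14 and -0.44, neither called. Usp38, the strongest Usp promoter, had 2341 and 2311 in KO, against 2273 and 2218 in WT (log2 fold change 0.05, adjusted p = 0.607). Usp promoters summed to 18444.2 and 18111.4 in KO, against 16485.3 and 17109.0 in WT, and Usp distal peaks to 3460.7 and 3586.1 in KO, against 3886.2 and 3696.5 in WT. The promoter sums were higher and the distal sums lower in both KO libraries, and neither sum was tested. Mean log2 signal over the Usp promoters was 8.09 and 8.04 in KO, against 8.03 and 8.18 in WT, and over the distal peaks 6.39 and 6.45 in KO, against 6.48 and 6.46 in WT. With each peak weighted equally, the promoters of the genotypes thus overlapped.

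**Figure D3:**
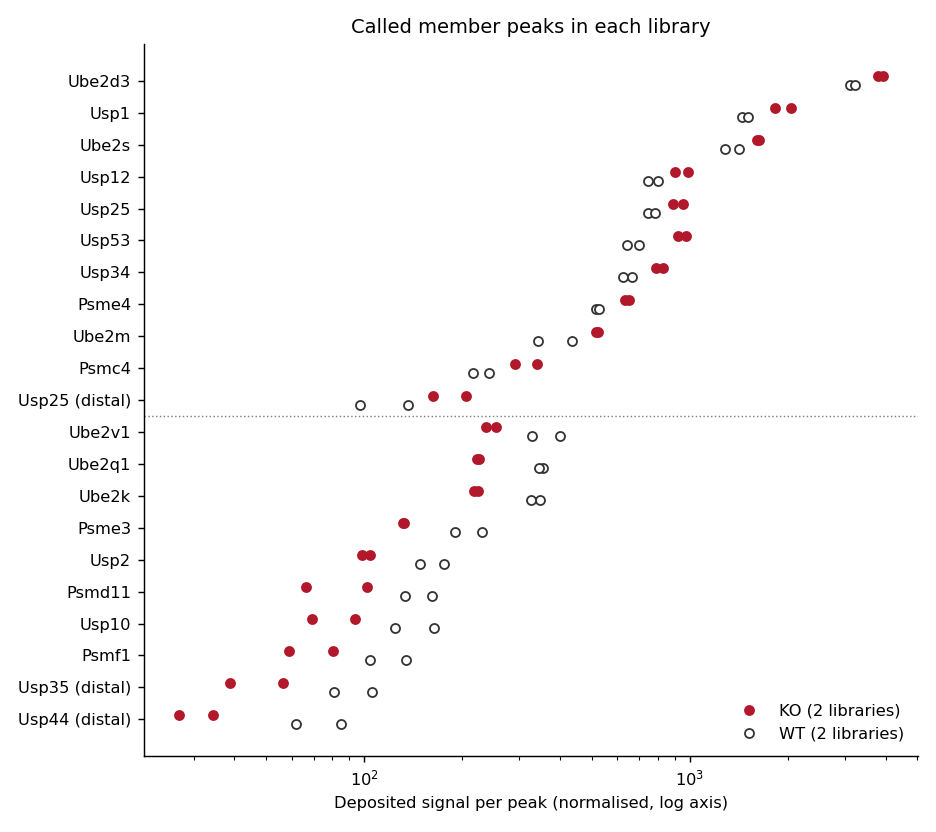
Signal per library (log axis) at the 21 called member peaks, with KO libraries as filled and WT libraries as open points. Above the dotted line are the peaks higher in KO and below it those lower in KO, each set ordered by mean signal. At every peak the KO pair and the WT pair do not overlap, which a call from 2 libraries per genotype makes likely in itself. Over all peaks, both KO libraries lie above both WT libraries at 28% and below them at 27.3%.

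Direction of the calls went with promoter strength, in members and in the whole table. The 10 promoters called higher had mean signals of 272 to 3514 and rose 1.197- to 1.414-fold. The 8 called lower had mean signals of 94.7 to 305 and were 1.49- to 1.77-fold lower in KO. When all 9084 promoters were cut into 5 bins of equal size by mean signal, the 26 members in the strongest bin held 8 higher and 0 lower calls, the 12 in the weakest bin held 0 and 1, and the 26 in the next weakest held 0 and 4. Over all promoters, 26.6% of the strongest bin were higher and 1.27% lower, while 0.275% of the weakest bin were higher and 9.14% lower. Median log2 fold change by bin, weakest first, was -0.34, -0.14, -0.08, 0.14 and 0.14 in members, and -0.32, -0.18, -0.05, 0.07 and 0.16 in all promoters. Across the 104 member promoters, Pearson's r between log2 fold change and log2 mean signal was 0.47, and across all promoters 0.48. By family it was 0.24 for proteasome (n = 35), 0.47 for Ube2 (n = 31) and 0.59 for Usp (n = 38) promoters, and over member distal peaks 0.04. These correlations are across peaks of the same 4 libraries, share their depth and carry no test. The KO libraries held more reads in peaks, 6182922 and 7930547, than the WT libraries with 3577922 and 3803711, and the part of depth in this pattern was not tested.

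**Figure D4:**
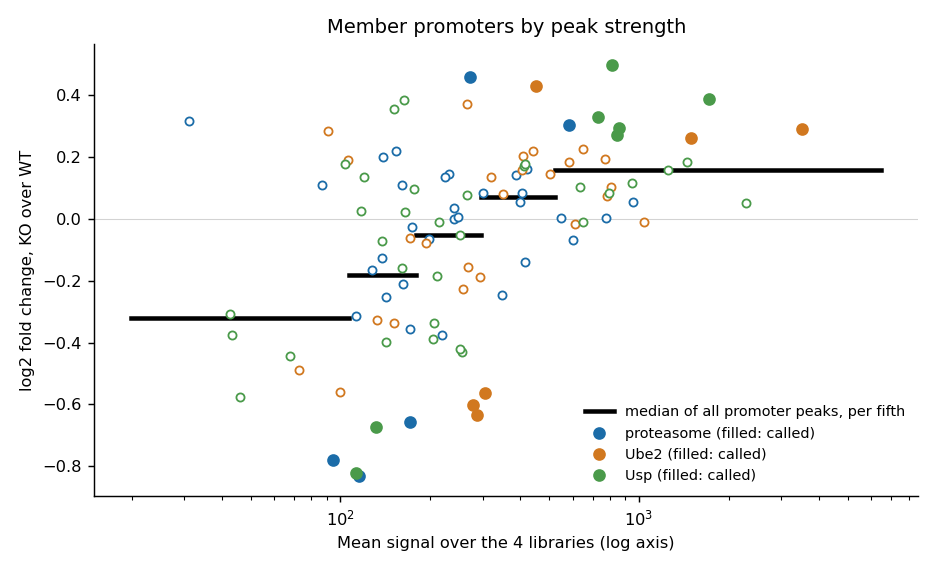
Log2 fold change of signal, KO over WT, against mean signal over the 4 libraries (log axis) for the 104 member promoter peaks, coloured by family, with filled points called; black bars give the median of all promoter peaks in each of 5 bins of equal size. The bars climb from -0.32 in the weakest bin to 0.16 in the strongest, and the called members lie below 0 at weaker and above 0 at stronger peaks, with overlap between mean signals of 272 and 305.

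Peaks of the same gene did not always share a sign. Of 108 genes, 33 had 2 or more peaks, and in 16 of these the log2 fold changes had mixed signs. The same share over all genes of the table was not computed. With most peaks uncalled and medians near 0, mixed signs alone say little about the members. Usp25, the member gene with more than 1 call, had 2 higher and 0 lower. Psma1, with 6 peaks the most of any member, had values between -0.69 and 0.28, none called. Usp6nl had 5 peaks between -0.39 and 0.47, none called, and the 4 peaks of Psmc1, a 19S ATPase gene, lay between -0.22 and 0.39. On chromosome 11, where peaks of the whole table had a median log2 fold change of -0.13 over 1491 peaks, with 3.89% higher and 9.73% lower, the 23 members had a median of -0.01 with 2 higher and 2 lower calls. Psme4, Usp34, Psmd11 and Psme3 are the 4 called members on that chromosome.

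Other genes of the ubiquitin system were counted with 1 promoter peak per gene, the nearest to the TSS. Of 110 listed genes 91 had such a peak, and 11 were higher and 3 lower in KO, while 7.68% of 8776 genes counted in this way were higher and 5.83% lower. No call was made among 4 ubiquitin precursor genes, 7 activating enzymes and 4 ubiquitin-like modifiers. Among 34 ligases 2 were higher and 0 lower. Cblb, a ligase that restrains immune receptor signalling, had 656 and 666 in the KO libraries, against 415 and 436 in the WT libraries (log2 fold change 0.63 ± 0.10 SE, adjusted p = 0.000352). That gap is many times the spread within either genotype. Rnf31, the catalytic subunit of the linear ubiquitin assembly complex, had 747 and 746 in KO, against 630 and 561 in WT (log2 fold change 0.33, adjusted p = 0.0289). The Rnf31 call was lost after scaling to total signal (limma adjusted p = 0.0713) and after cyclic loess normalisation (0.195). The Cblb call stood in both (0.00132 and 0.00345).

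Among 23 other deubiquitinases 4 were higher and 1 lower. Otud6b had 752 and 664 in KO libraries, against 564 and 484 in WT libraries (log2 fold change 0.44, adjusted p = 0.00903), and Yod1, a partner of the segregase Vcp, had 486 and 493 in KO, against 316 and 395 in WT (log2 fold change 0.47, adjusted p = 0.0155). Both calls stood after scaling to total signal (limma adjusted p = 0.0265 and 0.0351). Neither stood after cyclic loess normalisation (0.0695 and 0.0581). Atxn3, which trims chains, had 548 and 565 in KO, against 684 and 714 in WT (log2 fold change -0.33, adjusted p = 0.0300). Among 19 delivery and proteasome-associated genes 5 were higher and 2 lower. Shfm1, a small subunit of the 19S lid, had 722 and 676 in KO, against 486 and 484 in WT (log2 fold change 0.53, adjusted p = 0.00137). Zfand5, which stimulates the proteasome, had 3869 and 3761 in KO, against 2995 and 3369 in WT (log2 fold change 0.26, adjusted p = 0.00236). Its adjusted p in limma was 0.0157 after scaling to total signal and 0.691 after cyclic loess normalisation. Ddi2, the protease that activates Nfe2l1, had 150 and 152 in KO, against 211 and 277 in WT (log2 fold change -0.67, adjusted p = 0.0114). Over these lists the counts moved with scaling, from 11 higher and 3 lower to 2 and 6 after cyclic loess normalisation and to 5 and 4 after scaling to total signal. Leaving out KO replicate 1 gave 1 higher and 0 lower, and leaving out KO replicate 2 gave 4 and 1. Without WT replicate 1 the counts were 13 higher and 13 lower, with no lean to either side, and without WT replicate 2 they were 18 and 4. Median centring gave 17 and 2, and limma without the mean-variance trend 0 and 0, with 11 genes at an unadjusted p below 0.05.

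**Figure D5:**
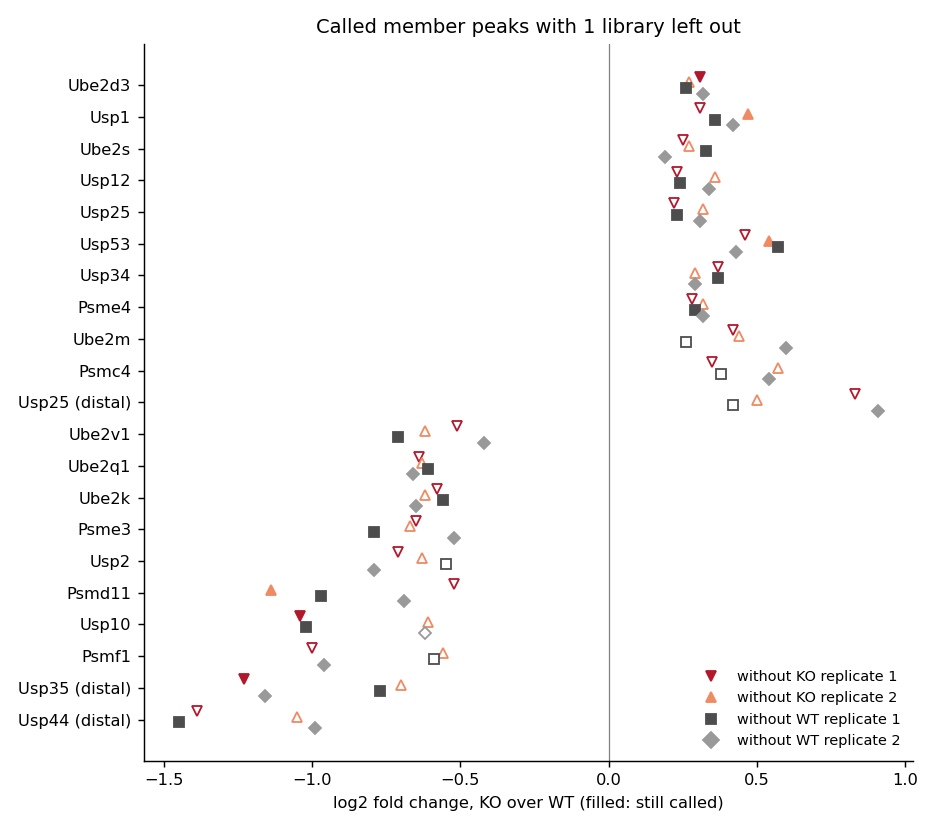
Log2 fold change of signal, KO over WT, for the 21 called member peaks in the fits that leave out 1 library each (a symbol per fit); filled symbols are still called. Every symbol keeps its side of 0, which it must where the KO pair and the WT pair do not overlap. Most symbols of the fits without a KO library are open.

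The targeted gene was checked first: of 7 peaks listed for Morrbid under its older name Gm14005, 2 held a signal of 0.883 and 0.693 in KO libraries, against 166 and 154 at the first and 120 and 120 at the second in WT libraries. Those KO values are the lowest that each KO library holds, so they mark a floor. Deleted and closed DNA cannot be told apart here. The other peaks listed for Morrbid had log2 fold changes from -0.24 to 0.02, none called. Of 16 neutrophil marker genes 13 had a peak, without rows for Elane, Ly6g and Mpo, and their 30 peaks summed to 9270.2 and 9543.8 in KO, against 9272.2 and 7990.1 in WT. Of these peaks 5 were higher and 3 lower in KO, which is 26.7%, against 10.6% of all peaks. No marker of B cells or of basophils and mast cells had a peak. Peaks stood at 4 of 5 macrophage, 3 of 5 eosinophil, 1 of 5 T cell, 1 of 2 NK cell, 2 of 3 erythroid and 2 of 3 dendritic marker genes, and none of the peaks at these other cell types' genes was called. The markers' part in the members' results was not tested. Over member peaks the KO pair correlated at 0.987 and the WT pair at 0.963, and the median absolute log2 difference within a pair was 0.113 in KO and 0.205 in WT. Member peaks held a median of 189.5 and 237 reads in the KO libraries, against 110.5 and 133 in the WT libraries, so weak distal peaks were measured with the least precision.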

How the data were processed

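ATAC-seq libraries from sorted bone marrow neutrophils, 2 KO and 2 WT, were grouped and numbered by their titles. The authors deposited 1 table of consensus peaks with a normalised signal per library and HOMER-style annotation, per the file headers. Tools listed in the submitters' processing notes, without role, are MACS2 2.1.0, BWA, Trimmomatic 0.32, bcl2fastq 2.16.0, HOMER, DiffBind and R 3.1.1, and the build is mm9. For read filters, the Tn5 offset and the consensus rule, nothing is given in the sources used here. Each library's values were multiples of a library-specific step (94380 values, tolerance 0.001), which was taken as 1 read for depth only, and no count model was used. Listed widths exceed end minus start by 2, which leaves starts uncertain by 1 or 2 bases.

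Signal was compared between genotypes by limma 3.58.1 (R 4.3.3, two-sided test, mean-variance trend) on log2(signal + 1), which understates changes of weak peaks. Genotype was its single term, and p-values were adjusted by Benjamini-Hochberg across the 23595 peaks. The procedure was tested on simulated data, with the same dispersion for all peaks and libraries and no genotype shift that depends on peak strength. That test therefore says nothing about calls that depend on scaling or on a wider spread in WT. Named were all called members, fixed well-known genes whatever their values, the strongest peaks and the gene with most peaks per family, and up to 3 called promoters of lowest p per pathway list. The values of 1 gene of the fixed set are not reported here. Members and lists were chosen with earlier results of these data known. Sequences come from RefSeq (GRCm38.p6), and gene IDs of all 108 member genes matched its table, used for names only. No per-sample column was left unused (0 columns).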

Additional observations from a re-analysis of the deposited data

How the results depend on the processing

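With 2 libraries per genotype, the counts moved widely when 1 library was left out: peaks called higher in KO over the whole table ranged from 185 to 2610 and lower from 237 to 2189. Member calls ranged from 0 to 4 higher and 0 to 5 lower for proteasome, 0 to 9 and 0 to 7 for Ube2, and 0 to 9 and 0 to 9 for Usp peaks. Promoter medians of the log2 fold change ranged from -0.082 to 0.051 for proteasome, -0.031 to 0.144 for Ube2 and -0.002 to 0.101 for Usp, and distal medians from -0.225 to 0.164, -0.208 to 0.128 and -0.111 to 0.034. A lone library is assumed to vary like the other genotype. Median centring moved the median of all peaks to 0.0649, against -0.0019 before, and gave 2248 peaks higher, with promoter medians of 0.071, 0.147 and 0.106 for proteasome, Ube2 and Usp. Scaling to total signal moved it to -0.0564 and gave 879 peaks higher, with 0 proteasome, 1 Ube2 and 2 Usp peaks higher, 7 Usp peaks lower and a Ube2 promoter median of 0.025. Cyclic loess gave 807 peaks higher, with 0 proteasome, 0 Ube2 and 2 Usp peaks higher and a Ube2 promoter median of -0.033. Without the mean-variance trend 0 peaks were higher and 22 lower in the whole table, and member calls were 0 in each family and direction, while limma's unadjusted p was below 0.05 at 31 members. Without the members on chromosome 11, proteasome calls were 1 higher and 1 lower and the Ube2 promoter median 0.135. The cause of these shifts was not tested. A pseudocount of 5 and a filter on mean signal above 50 kept all 21 member calls. With replicate number as a block, 1656 peaks were higher and 1279 lower, and members had 11 and 13 calls. Nothing in the labels pairs the libraries, and deviations of same-numbered libraries correlated at -0.0392. Count models were not run. The values are a normalised signal in multiples of a step per library, and that a step is 1 read was not established. Depth limits the weak peaks: WT libraries held as few as 8 reads at a member peak.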
